A study of Mus musculus with 4 samples.

Results

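The genes described here are 9 genes of retinoic acid metabolism and reception in the mouse testis, chosen by symbol: Stra6, Rdh10, Aldh1a1, Aldh1a2, Crabp1, Cyp26a1, Cyp26b1, Rara and Rarg. All 9 were found among the 55335 genes of the deposited count table, and all 9 were among the 24116 genes that passed the filter on low counts. The transcripts with poly(A) tails of whole testes were sequenced at postnatal day 14, and the labels name 2 libraries Znhit1_KO and 2 libraries CTRL. ZNHIT1 belongs to SRCAP, a remodelling complex that exchanges the histone variant H2A.Z into chromatin, and the question here is whether the retinoic acid transcripts differ with its gene disrupted. The allele behind the label Znhit1_KO, any Cre driver, the strain, the genotype of the CTRL animals and the number of animals per library are not stated in the labels. The design text of the series speaks of germ cells, whereas the labels give testis as the source and testis cells as the cell type.

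Retinoic acid is made from vitamin A (retinol) in a pair of oxidation steps and acts through nuclear receptors that bind DNA as partners of the RXR proteins. In the testis it drives spermatogonia to differentiate and germ cells to enter meiosis, and its supply is set by enzymes that make it and enzymes that break it down. STRA6 takes up retinol from its carrier protein, RDH10 oxidises retinol to retinal, and the ALDH1A enzymes oxidise retinal to retinoic acid. CRABP1 binds retinoic acid in the cytoplasm, the CYP26 enzymes degrade it, and RARA and RARG are its receptors. In the postnatal testis Aldh1a1 is known as a Sertoli cell gene and Aldh1a2 as a gene of spermatocytes, while Rarg is known in spermatogonia.

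The receptors recognise direct repeats of a short half-site, and the letters of 2 promoters are shown because they belong to genes whose transcripts serve as readouts of the pathway below. The consensus half-site AGGTCA, its variant AGTTCA, the variant GGGTCA and the variant GGTTCA were searched on both strands as pairs in the same orientation separated by 1, 2 or 5 bases, counting overlapping matches, from 250 bases before to 50 bases after each RefSeq start (GRCm38.p6, the mm10 build). Of 32851 such windows, 193 held a match (0.588%), and of the 27025 genes with windows, 186 held a match in at least 1. Windows were given for 8 of the 9 genes (all but Rdh10), and 1 of these, Cyp26a1, held a match. Among the 64 genes of the pathway and response lists used below, 46 had windows and 3 held a match: Cyp26a1 and Rarb with a spacing of 5 and Bco1 with a spacing of 1. The 250 bases before the start of the 2 genes with a spacing of 5 are printed 5′ to 3′ on the strand of the gene, with the half-sites in capitals. The Cyp26a1 stretch lies at chr19:37697558-37697807 on the plus strand, with its match on the opposite strand and the last base of the match at position -16 from the start. The Rarb stretch lies at chr14:16575477-16575726 on the minus strand, with its match on the strand of the gene and the last base at position -37.
Cyp26a1: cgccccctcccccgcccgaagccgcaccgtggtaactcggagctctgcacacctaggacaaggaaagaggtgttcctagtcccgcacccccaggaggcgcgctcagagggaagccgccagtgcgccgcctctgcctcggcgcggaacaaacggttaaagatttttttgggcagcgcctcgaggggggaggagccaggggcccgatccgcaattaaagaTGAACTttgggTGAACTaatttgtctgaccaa
Rarb: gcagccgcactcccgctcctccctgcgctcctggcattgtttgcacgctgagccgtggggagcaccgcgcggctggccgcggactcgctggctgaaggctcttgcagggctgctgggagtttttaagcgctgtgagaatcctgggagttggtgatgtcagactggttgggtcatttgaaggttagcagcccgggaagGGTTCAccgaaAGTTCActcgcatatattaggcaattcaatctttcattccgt
A match of letters is a description of the window and was not tested as a binding site.

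Estimated counts summed to between 129531714 and 157790457 per library. Levels are given as TPM (the authors' values, corrected for transcript length and library total) where genes are compared with each other, and as CPM (counts scaled to library size with TMM factors) where libraries are compared. Znhit1 itself stood at 17.3 and 31.9 CPM in CTRL replicates 1 and 2 and at 3.15 and 2.14 CPM in Znhit1_KO replicates 1 and 2, a log2 change of -3.22 (SE 0.403). Its exons share 529 bases with Plod3 on the opposite strand, and no label states whether the libraries kept the strand. No exon of the 9 genes overlaps an exon of another gene in GENCODE M21. The summed CPM of 18 Sertoli cell markers was 6550 and 6570 in CTRL, against 9310 and 7640 in Znhit1_KO (replicates 1 and 2 of each). A single marker, Clu, made up most of each sum, at 3580 and 3940 CPM in CTRL and 4990 and 4320 CPM in Znhit1_KO. For 14 pachytene spermatocyte markers the sums were 1500 and 3040 CPM in CTRL, against 757 and 1120 CPM in Znhit1_KO. In bulk testis RNA, fewer cells of a type and less RNA per cell cannot be told apart.

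None of the 9 genes differed between Znhit1_KO and CTRL beyond the test's threshold. The quasi-likelihood F-test of edgeR, adjusted over all genes by the Benjamini-Hochberg method, called 0 of the 9 at an adjusted p of 0.05, where it called 0 of all 24116 genes (0.0%). Znhit1 itself, at a log2 change of -3.22, did not pass in edgeR (adjusted p = 0.264) but did in DESeq2 (adjusted p = 5.65e-14). Because edgeR called no gene at all, its count of 0 of the 9 cannot show that these genes were unchanged. At an unadjusted p under 0.05 it had 0 of the 9, against 2.99% of all genes in the higher and 7.75% in the lower direction. DESeq2 called 0 of the 9, against 4.32% of all genes, and limma-voom called 0 of the 9 and 0 of all genes. The authors' deposited table marks 0 of the 9, against 3.5% of the genes it lists. Of the 9 log2 changes 5 were above 0, beside 53.1% of all genes. They ran from -0.19 to 0.35, with a median of 0.013 beside 0.031 over all genes tested. With TMM scaling the 95% interval of each of the 9 changes lay inside a 2-fold change in either direction, with bounds of 0.534-fold and 1.66-fold over the set.

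Although none passed, 4 of the 9 genes, Aldh1a1, Cyp26b1, Rara and Crabp1, had both Znhit1_KO values above both CTRL values, and 1, Rdh10, had both below. Over all genes the groups stood apart in this way for 21.8% in the higher direction and 21.3% in the lower one. The 4 genes had log2 changes between 0.24 and 0.35. The Sertoli cell markers had a median of 0.42, with all 18 above 0 and 11 of 18 without overlap between groups. With libraries scaled to the summed Sertoli cell markers in place of TMM, the signs of Aldh1a1 (-0.074), Cyp26b1 (-0.017), Rara (-0.015) and Crabp1 (-0.11) turned, and all 9 changes were negative. That scaling, in which Clu weighed most, moved the median of all genes from 0.031 to -0.33. Relative to the median of all genes, Aldh1a1 stood at 0.25 under both scalings, Cyp26b1 at 0.30 and 0.31, Rara at 0.32 and 0.31, and Crabp1 at 0.21 and 0.21, TMM first. A change of scaling moves all genes nearly together, so the likeness of these values was largely fixed in advance. The part of cell composition in these differences was not tested beyond these values.

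**Figure D1:**
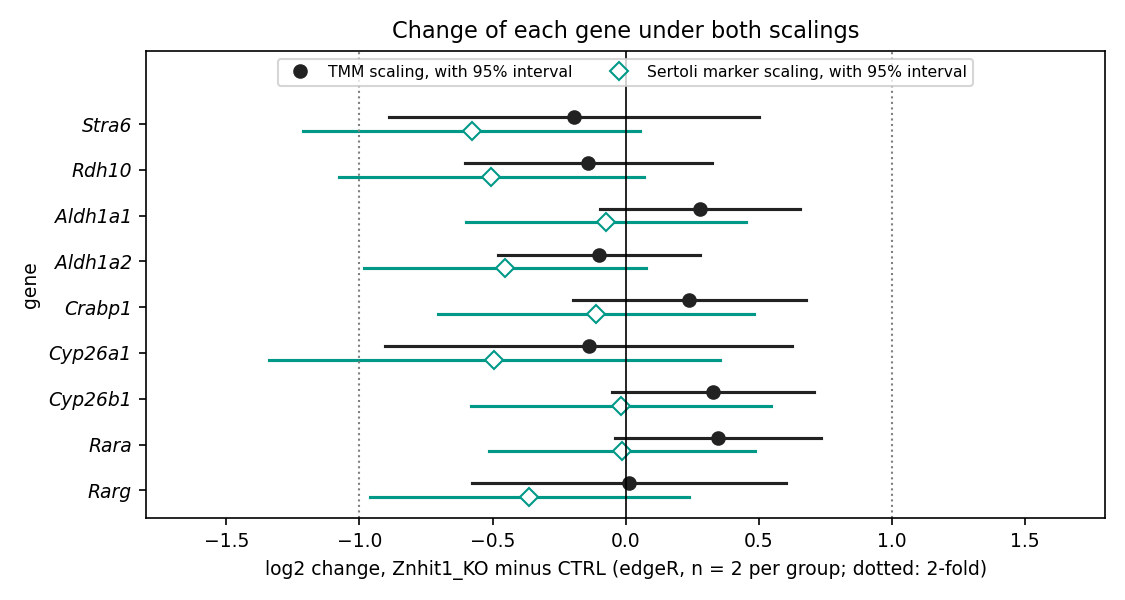
Log2 change of each gene, Znhit1_KO minus CTRL, from edgeR with 2 libraries per group; filled circles use TMM scaling, open diamonds use scaling to the Sertoli cell markers, and bars are 95% intervals. All 9 TMM intervals include 0 and lie inside the dotted lines of a 2-fold change, and the Sertoli scaled values lie lower for every gene, with the lower bounds of Stra6, Rdh10 and Cyp26a1 past the 2-fold line (-1.21, -1.08 and -1.34).

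The 9 transcripts spanned a wide range of levels, led by the main synthetic enzyme of the somatic cells. Aldh1a1 had the highest mean over the 4 libraries, 624 TPM, followed by Aldh1a2 at 151, Cyp26b1 at 142, Crabp1 at 97.8 and Rara at 76.4 TPM. Rarg at 22.8, Stra6 at 20.8, Rdh10 at 13.9 and Cyp26a1 at 6.16 TPM were lower. Over the 4 libraries the ranges of Aldh1a2 and Cyp26b1 overlapped, as did those of Crabp1 and Rara, of Rarg and Stra6, and of Stra6 and Rdh10. Within single libraries, however, Crabp1 was above Rara, Rarg above Stra6 and Stra6 above Rdh10 in 4 of 4 libraries, while Aldh1a2 was above Cyp26b1 in 2 of 4. Among neighbours, only the order of Aldh1a2 and Cyp26b1 thus varied between libraries. The ranges of the other neighbours stood apart.

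**Figure D2:**
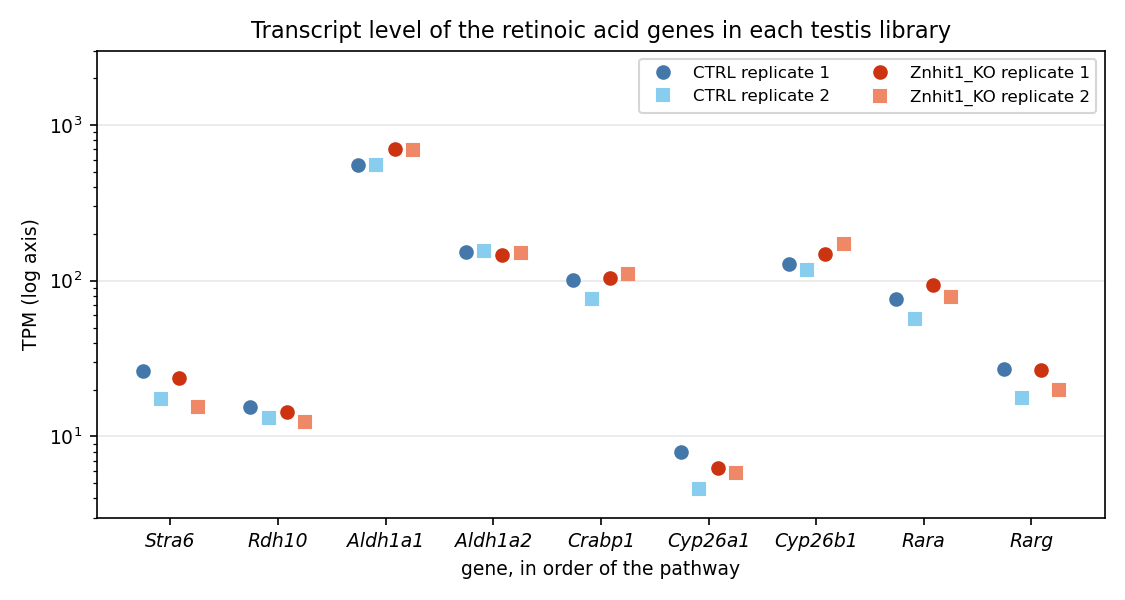
TPM of each gene in each of the 4 libraries on a log axis, with genes in the order of the pathway; circles are replicate 1 and squares replicate 2, blue for CTRL and red for Znhit1_KO. Aldh1a1 lies between 550 and 705 TPM and Cyp26a1 between 4.62 and 7.94 TPM, and the spread within each gene is small beside the distance between those genes.

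Stra6 and Rdh10, which stand for uptake and the first oxidation step among the 9 genes, were among the lower of them in mean TPM. Stra6 (ENSMUSG00000032327.14, chromosome 9, 58063788 to 58153996, mm10), the retinol uptake receptor, stood at 30.5 and 23.0 CPM in CTRL replicates 1 and 2 and at 28.2 and 18.6 CPM in Znhit1_KO replicates 1 and 2. The groups overlapped, and in each the library numbered 1 was the higher. Its log2 change was -0.19 (SE 0.276, edgeR adjusted p = 0.842), with values from -0.56 to 0.033 when each library was left out in turn. Rdh10 (ENSMUSG00000025921.7, chromosome 1, 16105774 to 16133734), the retinol dehydrogenase, stood at 20.9 and 20.5 CPM in CTRL and at 19.9 and 17.6 CPM in Znhit1_KO. All 4 values were close, with both Znhit1_KO libraries below both CTRL libraries in CPM but not in TPM, where CTRL replicate 2 was at 13.2 and Znhit1_KO replicate 1 at 14.4. The log2 change of Rdh10 was -0.14 (SE 0.184, edgeR adjusted p = 0.826).

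The 2 retinal dehydrogenases had small log2 changes that did not pass the test, and the difference between them was not tested. Aldh1a1 (ENSMUSG00000053279.8, chromosome 19, 20492715 to 20643465) stood at 424 and 485 CPM in CTRL and at 548 and 556 CPM in Znhit1_KO. Both Znhit1_KO libraries were higher, and they were close to each other. Its log2 change was 0.28 (SE 0.149, edgeR adjusted p = 0.57), a fold of 1.21 with a 95% interval from 0.936 to 1.58. Aldh1a1 has a closely similar paralog, Aldh1a7, and the labels do not state how the authors' counting divided reads between them. Aldh1a7 stood at 25.5 and 13.4 CPM in CTRL and at 36.1 and 15.1 CPM in Znhit1_KO, far below Aldh1a1 in every library.

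Aldh1a2 (ENSMUSG00000013584.5, chromosome 9, 71215789 to 71296243) stood at 131 and 153 CPM in CTRL and at 131 and 135 CPM in Znhit1_KO. The groups overlapped, and the log2 change was -0.10 (SE 0.15, edgeR adjusted p = 0.849) with a 95% interval of 0.717-fold to 1.21-fold. In the same libraries the 14 pachytene spermatocyte markers had log2 changes from -4.12 to -0.30, with a median of -2.14 and all 14 lower in both Znhit1_KO libraries. Aldh1a2, known as a spermatocyte gene, had an interval (log2 -0.479 to 0.279) that lay above the median of those markers. The smallest marker change, -0.30, lay inside that interval, and the list was chosen with earlier results of these data known. The median carries no error here, and the intervals of Hspa2 (-1.669 to -0.108) and Piwil1 (-2.768 to -0.373), the markers of highest mean CPM, overlapped that of Aldh1a2. Relative to its mean over the 4 libraries, the log2 CPM of Aldh1a2 was -0.06 and 0.16 in CTRL, against -0.07 and -0.03 in Znhit1_KO. The marker mean was 0.46 and 1.67 in CTRL, against -1.44 and -0.70 in Znhit1_KO.

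The share of Aldh1a2 in the summed TPM of both enzymes was lower in both Znhit1_KO libraries. The CTRL libraries had 21.8% and 22.0% and the Znhit1_KO libraries 17.3% and 17.9%, or 21.9% ± 0.199 and 17.6% ± 0.405 (SD, n = 2). The difference of -4.32 percentage points was larger than the spread within each group and was between -4.61 and -4.03 with any 1 library left out. From CPM, without correction for length, it was -4.45. This share is a description of 2 of the chosen genes and carries no test. In TPM, Aldh1a2 stood at 153 and 156 in CTRL and at 147 and 150 in Znhit1_KO. Aldh1a1 stood at 550 and 551 in CTRL and at 705 and 690 in Znhit1_KO, so the lower share came mostly with higher Aldh1a1 values.

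Crabp1 (ENSMUSG00000032291.8, chromosome 9, 54764748 to 54773110), the cytoplasmic binding protein, stood at 30.7 and 26.6 CPM in CTRL and at 32.7 and 35.1 CPM in Znhit1_KO. The Znhit1_KO libraries were higher by a small margin over CTRL replicate 1. Its log2 change was 0.24 (SE 0.173, edgeR adjusted p = 0.668), with a 95% interval of 0.872-fold to 1.6-fold.

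Of the degrading enzymes, Cyp26b1 was far more abundant than Cyp26a1. Cyp26b1 (ENSMUSG00000063415.12, chromosome 6, 84571414 to 84593908) stood at 216 and 224 CPM in CTRL and at 256 and 297 CPM in Znhit1_KO, with no overlap between groups. Its log2 change was 0.33 (SE 0.15, edgeR adjusted p = 0.516), a fold of 1.26 with a 95% interval from 0.966 to 1.63. Cyp26a1 (ENSMUSG00000024987.6, chromosome 19, 37697798 to 37701536), whose promoter holds the repeat printed above, stood at 5.12 and 3.50 CPM in CTRL and at 3.86 and 3.97 CPM in Znhit1_KO. The Znhit1_KO values lay between the CTRL values, which were the farthest apart. The log2 change of Cyp26a1 was -0.14 (SE 0.304, edgeR adjusted p = 0.905), and leaving out CTRL replicate 1 gave 0.16, leaving out CTRL replicate 2 -0.39. Cyp26a1 made up 5.78% and 3.76% of the summed TPM of the pair in CTRL and 4.02% and 3.24% in Znhit1_KO, and the groups overlapped.

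The ratio of synthesis to breakdown transcripts, the summed TPM of Aldh1a1 and Aldh1a2 over that of Cyp26a1 and Cyp26b1, overlapped between groups. The CTRL libraries had ratios of 5.12 and 5.75 and the Znhit1_KO libraries 5.47 and 4.70. On the log2 scale the group means were 2.44 ± 0.119 and 2.34 ± 0.154 (SD, n = 2), a difference of -0.096 that was smaller than the spread within either group. With any 1 library left out it lay between -0.21 and 0.013, the latter without Znhit1_KO replicate 2.

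Among the receptors, Rara (ENSMUSG00000037992.16, chromosome 11, 98927818 to 98974942) had the largest log2 change of the 9 genes. It stood at 81.9 and 72.9 CPM in CTRL and at 103 and 93.7 CPM in Znhit1_KO, with both Znhit1_KO libraries above both CTRL libraries. The log2 change was 0.35 (SE 0.154, edgeR adjusted p = 0.505, unadjusted 0.0692), a fold of 1.27 with a 95% interval from 0.973 to 1.66, and it lay between 0.24 and 0.43 with any 1 library left out. Rarg (ENSMUSG00000001288.15, chromosome 15, 102234938 to 102257517) stood at 28.2 and 21.5 CPM in CTRL and at 28.3 and 21.8 CPM in Znhit1_KO. Its 2 groups covered nearly the same values, each with the library numbered 1 higher, and the log2 change was 0.013 (SE 0.234, edgeR adjusted p = 0.992). The interval of Rarg still ran from 0.67-fold to 1.52-fold. Rarg made up 26.1% and 23.7% of the summed TPM of both receptors in CTRL and 22.1% and 20.3% in Znhit1_KO, without overlap. This share carries no test. Mean TPM of Rarg was 22.3 in CTRL and 23.3 in Znhit1_KO, and that of Rara 66.5 and 86.2, so the share moved mostly with Rara.

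The genes with the most similar profile over the 4 libraries were sought among 127 other listed genes with a mean of at least 1 CPM, by the distance between log2 CPM values centred on each gene's mean. With only 4 libraries many genes lie close to each other, and the distances are descriptions. The centred values were not scaled to equal spread, so a gene that varied little could lie near only genes that also varied little. Nearest to Aldh1a1 were Rdh13 (distance 0.064), Rxrb and Rxra, and nearest to Cyp26b1 were Rxra (0.053), Adh5 and Rxrb. Rara lay nearest to Scarb1 (0.036), Dhh and Smtn, which come from the Leydig, Sertoli and myoid cell lists. Rarg lay nearest to Sall4 (0.045), a spermatogonial gene, then to Ncoa1 and Myh11. Aldh1a2 lay nearest to Dgat1 (0.112), Lipe and Gfra1. Crabp1 lay nearest to Nrip1 (0.138), Mrc1 and Scarb1, Rdh10 to Cnn1 (0.127), Ncor1 and Kit, and Stra6 to Actg2 (0.146), Myh11 and Sall4. Cyp26a1 had the most distant neighbours, Uchl1 (0.312), Rarg and Kit.

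**Figure D3:**
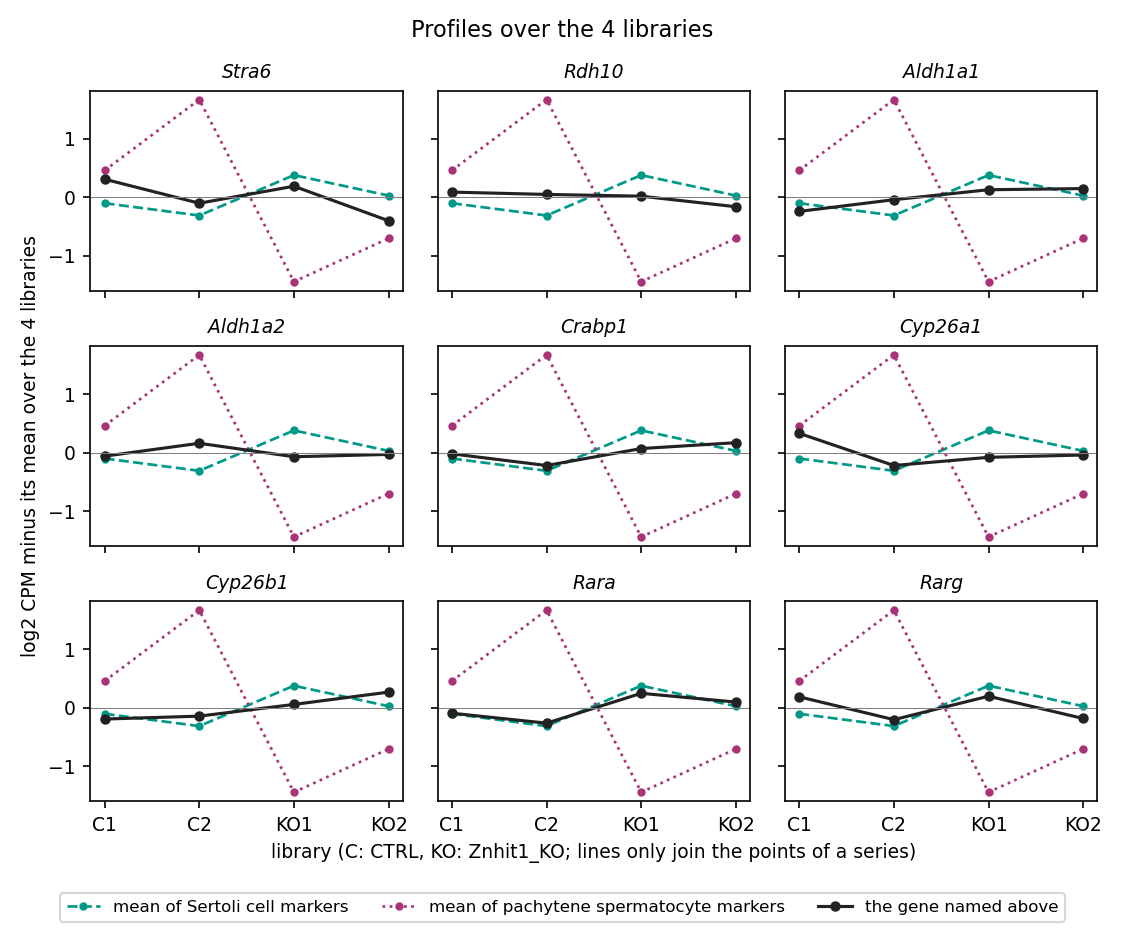
Log2 CPM of each gene minus its mean over the 4 libraries (black), with the mean of the 18 Sertoli cell markers (dashed) and of the 14 pachytene spermatocyte markers (dotted) in every panel; lines only join the points of a series. The 9 genes stay between -0.40 and 0.33, while the pachytene mean runs from 1.67 in CTRL replicate 2 to -1.44 in Znhit1_KO replicate 1.

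Other genes of the pathway were followed in lists by role, and edgeR called 0 higher and 0 lower of the 39 tested (41 listed). Their median log2 change was 0.21 beside 0.031 over all genes. Without overlap between groups there were 14 higher and 6 lower, beside 21.8% and 21.3% of all genes. At an unadjusted p under 0.05 in edgeR there were 3 higher and 1 lower, beside 2.99% and 7.75% of all genes. In the uptake and storage list (10 tested, median -0.14), Dgat1 (-0.11, SE 0.173), which can esterify retinol, and the lipase gene Lipe (-0.19, SE 0.192) had changes close to their standard errors.

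Among 11 tested genes that interconvert retinol and retinal (median 0.25), 5 were higher and 2 lower without overlap, beside 21.8% and 21.3% of all genes. Adh5, of the alcohol dehydrogenase family, stood at 63.6 and 70.1 CPM in CTRL and at 79.6 and 91.8 CPM in Znhit1_KO, a log2 change of 0.36 (SE 0.159, edgeR adjusted p = 0.506). Rdh11, a retinal reductase, stood at 53.0 and 96.4 CPM in CTRL and at 36.1 and 61.3 CPM in Znhit1_KO. Its library numbered 2 was the higher in both groups, and its log2 change of -0.62 (SE 0.379) did not pass. Dhrs7, of the short-chain dehydrogenase family, had a log2 change of 0.25 (SE 0.186).

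Of the other enzymes of synthesis and breakdown, Aldh1a3, another retinal dehydrogenase, stood at 3.90 and 3.29 CPM in CTRL and at 6.67 and 5.71 CPM in Znhit1_KO. Both Znhit1_KO libraries were clearly above both CTRL libraries, with a log2 change of 0.78 (SE 0.264), but the edgeR adjusted p was 0.407 (unadjusted 0.0287). In TPM, Aldh1a3 reached 5.02 in its highest library, where Aldh1a1 was at 705, so it added little to the summed transcripts of the family. Aldh8a1 had a log2 change of -2.35 (SE 0.75, edgeR adjusted p = 0.381) on estimated counts of 29 and 57 in CTRL and 11 and 8 in Znhit1_KO. Cyp26c1 (-0.071, SE 0.476) stayed at or below 1.02 TPM, and Aldh1a7 had a log2 change of 0.40 (SE 0.503).

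The partner receptors and other binding proteins had log2 changes above 0 in 6 of 6 genes, beside 53.1% of all genes, and edgeR called 0. The median of 0.77 lay between 2 sets of genes. The more abundant Rxra, Rxrb and Fabp5 lay between 0.25 and 0.34, whereas Crabp2 (1.20, SE 0.779), Rarb and Rxrg had larger changes on mean levels of 0.447, 0.339 and 0.113 CPM. With Sertoli marker scaling those of Rxra, Rxrb and Fabp5 turned negative (-0.0065, -0.10 and -0.078). Rxrb stood at 75.4 and 80.1 CPM in CTRL and at 91.5 and 93.5 CPM in Znhit1_KO, a log2 change of 0.25 (SE 0.141). Rxra stood at 50.8 and 54.4 CPM in CTRL and at 63.0 and 70.3 CPM in Znhit1_KO, a log2 change of 0.34 (SE 0.153). Neither passed the test (edgeR adjusted p of 0.587 for Rxrb and 0.511 for Rxra). Rxrg, the remaining RXR gene, had estimated counts of 12 and 0 in CTRL and 28 and 26 in Znhit1_KO and a log2 change with an SE of 1.46. Fabp5, which can carry retinoic acid, had a log2 change of 0.31 (SE 0.328). Rarb, the remaining retinoic acid receptor, was nearly absent, with estimated counts of 30 and 14 in CTRL and 78 and 74 in Znhit1_KO. Its log2 change of 1.62 (SE 0.606, edgeR adjusted p = 0.45) rested on levels of 0.507 TPM or less.

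Among 8 receptor coregulators (median 0.12), Ncor1, a corepressor of unliganded receptors, stood at 292 and 269 CPM in CTRL and at 299 and 270 CPM in Znhit1_KO, with a log2 change of 0.021 (SE 0.146). The coactivator Ncoa2 had a log2 change of 0.24 (SE 0.175).

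**Figure D4:**
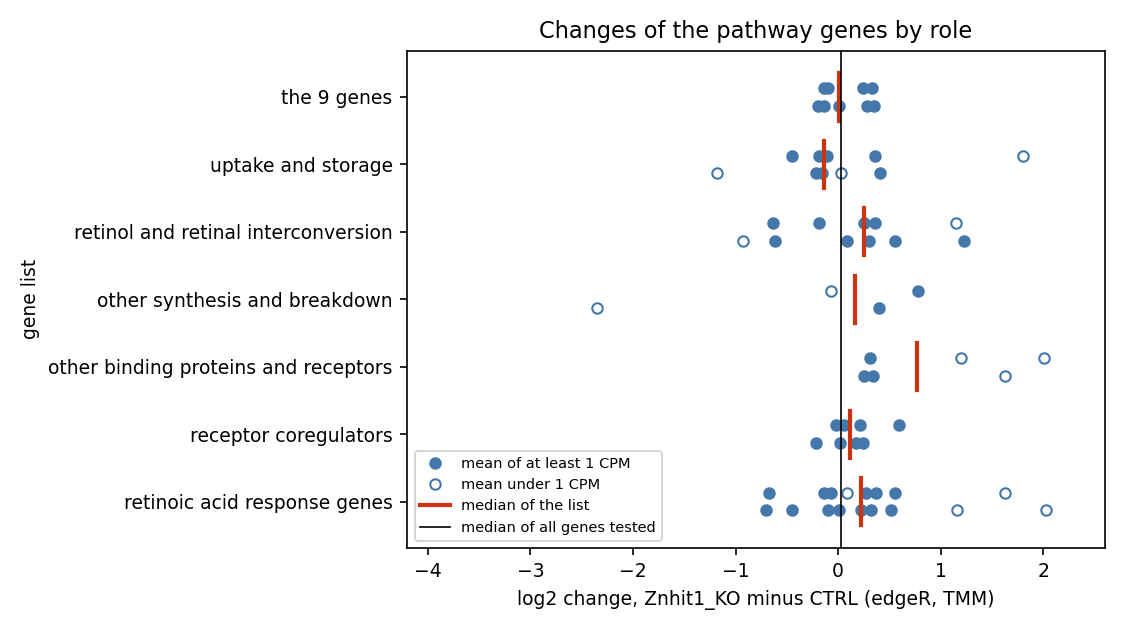
Log2 change, Znhit1_KO minus CTRL, of each tested gene of the pathway and response lists; filled points have a mean of at least 1 CPM, open points less, red bars are list medians and the vertical line is the median of all genes tested (0.031). The 9 genes span -0.19 to 0.35, and the widest values in the other lists belong mostly to open points.

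Genes known to respond to retinoic acid had changes on both sides of 0. Of 17 listed and tested, edgeR called 0, with 11 log2 changes above 0 and 6 below and a median of 0.22. Without overlap there were 5 higher and 3 lower, beside 21.8% and 21.3% of all genes. At an unadjusted edgeR p under 0.05 there were 2 in each direction, beside 2.99% of all genes higher and 7.75% lower. The list holds Cyp26a1, one of the 9, and Rarb, both described above.

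For 2 regulators of meiotic entry on that list both Znhit1_KO values lay well below both CTRL values, and DESeq2 called them where edgeR did not. Of all genes tested, DESeq2 called 3.86% lower. Stra8, which germ cells switch on as they enter meiosis, stood at 113 and 122 CPM in CTRL and at 71.8 and 75.5 CPM in Znhit1_KO. Values within each group were close, and the log2 change of Stra8 was -0.67 (SE 0.144; edgeR adjusted p of 0.276, unadjusted 0.00457; DESeq2 adjusted p of 0.0178). Gm4969, the gene of the STRA8 partner MEIOSIN, stood at 156 and 124 CPM in CTRL and at 87.3 and 85.2 CPM in Znhit1_KO. Its log2 change was -0.70 (SE 0.17), with an edgeR adjusted p of 0.311 (unadjusted 0.00788) and a DESeq2 adjusted p of 0.0442. In the authors' deposited table the adjusted p was 0.049 for Stra8 and 0.0719 for Gm4969. That table marks 0 of the 17 genes, but each gene it marks changed at least 2-fold, which neither of these did.

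Kit, the receptor of differentiating spermatogonia, stood at 130 and 124 CPM in CTRL and at 115 and 123 CPM in Znhit1_KO, a log2 change of -0.099 (SE 0.139). Rarres1, named for its response to retinoic acid, stood at 17.6 and 17.8 CPM in CTRL and at 27.4 and 23.1 CPM in Znhit1_KO, a log2 change of 0.51 (SE 0.188, edgeR adjusted p = 0.444). As folds, Stra8 and Gm4969 stood at 0.63 and 0.62 of CTRL and Rarres1 at 1.43.

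Marker lists of testis cell types gave the following background in the same libraries. Among Sertoli cell markers Clu had a log2 change of 0.31 (SE 0.164) and Aard of 0.47 (SE 0.151). The 10 Leydig cell markers had a median of 0.39, with Scarb1 at 0.31 (SE 0.149) and Nr5a1 at 0.40 (SE 0.17), both of which Sertoli cells also express. A pair of steroidogenic enzyme genes on that list, picked after their values were seen, had larger log2 changes, without overlap between groups. Of the 10 markers 6 were higher without overlap, beside 21.8% of all genes, and the 10 changes ran from -0.057 to 2.62. Cyp17a1 was at 1.00 and 0.833 CPM in CTRL and at 5.97 and 5.33 CPM in Znhit1_KO, a log2 change of 2.62 (SE 0.303, edgeR adjusted p = 0.264). Cyp11a1 was at 2.96 and 2.55 CPM in CTRL and at 6.71 and 18.7 CPM in Znhit1_KO, a log2 change of 2.21 (SE 0.523, edgeR adjusted p = 0.305). The part of these cells in the levels of the 9 genes was not tested. The 8 peritubular myoid cell markers had a median of 0.003, with Acta2 at -0.059 and Myh11 at -0.003, and the 8 endothelial markers one of 0.26, with Cdh5 at 0.29 and Vwf at 0.53. The 8 macrophage markers had a median of 0.68, with Mrc1 at 0.073 and Csf1r at 0.67. Undifferentiated spermatogonia markers (11, median 0.26) included Zbtb16 at 0.32 and Sall4 at 0.010. The list drawn up for differentiating spermatogonia (8, median -0.13) held Uchl1 at -0.002 and Kit, and how specific each is to that stage was not tested. Among pachytene markers Hspa2 stood at -0.89 (SE 0.31) and Piwil1 at -1.57 (SE 0.475). Of 10 round spermatid markers 6 were tested (median -0.35), with Spaca1 at -0.24 and Tssk1 at -0.78, and the spermatid genes Tnp1, Prm1 and Prm2 had estimated counts of at most 20. In all these lists edgeR called 0 genes. DESeq2 called 10 of the 14 pachytene markers lower, Piwil1 among them, beside 3.86% of all genes, and 2 of the 10 Leydig markers higher, beside 0.46%. It also called 1 of the differentiating spermatogonia markers, Stra8, lower, and 0 genes of the other marker lists. The authors' deposited table marks 10 pachytene markers as lower, beside 3.22% of the genes it lists, and 2 Leydig markers, Cyp17a1 and Cyp11a1, as higher, beside 0.277%.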

How the data were processed

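Per the labels' protocols, poly(A) RNA from fresh testes was sequenced for 2 biological replicates per genotype. The submitters' processing notes name mm10 and the tools StringTie 2.2.1, HISAT2 2.2.1, cutadapt 2.5 and DESeq2 1.38.3, without their roles; how genes were counted and annotated is not stated there. The gene table deposited by the authors was taken as estimated counts, since its sums exceed the stated number of reads, and precision read from it is too high. A further table deposited by the authors compares the groups for 25236 genes, with TPM for every library, a mean normalised signal, log2 fold changes and their errors, test scores, and raw and adjusted p-values. TPM was used only for description.

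Columns were matched to libraries by name. Of 55335 gene identifiers, 55045 were found in GENCODE M21 (mm10), the source of positions. Promoter sequences came from RefSeq. Counts entered edgeR 4.0.16 (R 4.3.3) and its quasi-likelihood F-test: TMM, filterByExpr, genotype as the only term, Benjamini-Hochberg adjustment at 0.05 over all genes. Intervals of 95% and standard errors came from the F statistic and its moderated degrees of freedom. DESeq2 1.42.0, limma 3.58.1 (voom), other scalings, no filter, a replicate term and leaving out each library were alternatives. The test was run on simulated counts. Centred log2 CPM used a prior count of 2. With 2 libraries per group, p-values measure the spread between these samples.

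The members, lists and tests were chosen with earlier results of these data known. Beside Znhit1 and the 9 genes, the text names, of each pathway or response list, the 3 genes of highest mean CPM and those with an unadjusted p under 0.05, of each marker list the 2 of highest mean CPM, and the 3 nearest profiles of each gene. Some genes that this rule gave are not reported here. Plod3, Bco1, Crabp2, Rxrg, Cyp17a1, Cyp11a1, Tnp1, Prm1 and Prm2 were named after their values were seen.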

Additional observations from a re-analysis of the deposited data

How the results depend on the processing

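EdgeR called 0 of the 9 genes under every alternative run, as did DESeq2 and limma-voom, while the number called over all genes moved from 0 to 1041 with DESeq2, to between 0 and 754 with 1 library left out (754 without CTRL replicate 1) and to 2737 with a replicate block. The labels give no pairing beyond a number; deviations of same-numbered libraries from their group means correlated at 0.421 across genes, and the block left the lowest adjusted p of the 9 at 0.0566 (Rara). Of the other genes named, the block brought Rdh11 (adjusted p = 0.0119), Aldh1a3 (0.0426), Stra8 (0.00637), Gm4969 (0.0103) and Aard (0.0301) past the edgeR threshold. It did the same for Nr5a1 (0.034), Csf1r (0.0349), Hspa2 (0.00684), Piwil1 (0.000476) and Znhit1 (0.00224). These stand beside the 2737 called of all 24116 genes, and with 4 libraries the block leaves few degrees of freedom. Its calls therefore do not single out these genes.

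The median log2 change of the 9 genes was -0.36 with Sertoli marker scaling and between -0.11 and 0.18 with 1 library left out. That of the other pathway genes was -0.15 and between 0.084 and 0.19, and that of the response genes -0.15 and between -0.039 and 0.25. The signs and calls of all 48 genes that the naming rule gave were kept with limma-voom and with no filter on low counts, and those of 42 with DESeq2. With 1 library left out, the difference in the share of Aldh1a2 lay between -4.61 and -4.03 percentage points, and that in the log2 ratio of synthesis to breakdown between -0.21 and 0.013, where the sign turned.

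With Sertoli marker scaling the sign also turned for Rarg (-0.36), Aldh1a1 (-0.074), Cyp26b1 (-0.017), Rara (-0.015), Crabp1 (-0.11), Dhrs7 (-0.12), Aldh1a7 (-0.018), Fabp5 (-0.078), Rxra (-0.0065), Rxrb (-0.10), Ncor1 (-0.34), Ncoa2 (-0.13), Clu (-0.057), Scarb1 (-0.049), Mrc1 (-0.28), Cdh5 (-0.042), Zbtb16 (-0.058) and Sall4 (-0.37). That scaling lowered all values together, and since Clu made up most of the marker sum, its own value was largely fixed in advance. It turned with DESeq2 and with its size factors for Rarg (-0.00045 and -0.00046) and Sall4 (-0.004 with both), and with total counts for Myh11 (0.0083) and Uchl1 (0.017). With 1 library left out the log2 change lay between -0.21 and 0.015 for Aldh1a2, -0.39 and 0.16 for Cyp26a1, -0.22 and 0.22 for Rarg, -0.56 and 0.033 for Stra6, -0.25 and 0.012 for Dgat1, -0.40 and 0.93 for Aldh1a7, -0.51 and 0.21 for Cyp26c1, -0.14 and 0.61 for Fabp5, -0.084 and 0.080 for Ncor1, -0.22 and 0.12 for Acta2, -0.40 and 0.25 for Myh11, -0.0085 and 0.13 for Mrc1, -0.057 and 1.34 for Csf1r, -0.24 and 0.25 for Sall4, and -0.067 and 0.064 for Uchl1. The cause of these moves was not tested. The estimated counts overstate depth, and genes under 1 CPM, such as Rarb and Aldh8a1, carry wide errors.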
